A study of Mus musculus with 4 samples.

Results

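The 10 genes described here mark the adipocyte, the fat-storing cell, and build its lipid store. They are Pparg, Adipoq, Cfd, Retn, Lpl, Cd36, Fabp4, Plin1, Cidec and Car3. They were found as the probes of the array design that carry one of these gene names, 13 probes of 39426, among 30340 genes or targets in all. They were chosen by their differences between genotypes on these same arrays, so those differences are a description with no test, and nothing is supported with them.

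The cells were primary keratinocytes, the epithelial cells of the epidermis, freed with 0.05% collagenase A from the whole skin of newborn C57BL/6 mice that were Pla2g2f+/+ or Pla2g2f-/-. Pla2g2f encodes a secreted phospholipase A2. After 3 days of culture the cells were kept for 48 h without added calcium or with 1 mM CaCl2, the usual trigger of keratinocyte differentiation. Each of the 4 combinations is 1 one-colour Agilent array, and its RNA was pooled from the cells of 6 mice of that genotype. With a single array in each group nothing below has a replicate or a test, and precision is limited by how few arrays there are. The effect of genotype and that of the cell preparation cannot be told apart.

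In white fat, PPARG is the nuclear receptor that, together with C/EBP factors, switches on and maintains the adipocyte programme. Its targets include secreted proteins, the proteins that bring fatty acids into the cell, and the proteins that coat and enlarge the lipid droplet in which triglyceride is kept. The dermis of newborn mouse skin holds a layer of such adipocytes. Several of these genes are also used by macrophages or by capillary endothelium, and Car3 by skeletal muscle. In a bulk culture fewer cells of a type and less RNA per cell cannot be told apart.

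Every one of the 13 member probes was well above background on all 4 arrays, with 0 saturated and 0 outlier spots. On the same arrays 67.0% to 68.6% of all probes were well above background. The 12 basal keratinocyte markers, which check the labelled cell type, were also well above background on every array. The level of Pla2g2f was 0.0982 in +/+ cells without calcium and 0.122 with it, against 0.0729 and 0.0866 in -/- cells. Its probe was well above background on all 4 arrays, and since the labels do not name the deleted part, it does not check the deletion. Levels are given throughout as the ratio of a probe's signal to the 75th percentile of its array. They compare 1 probe across arrays and not one gene with another. Differences are on the log2 scale, and each carries the scanner's own error, about 0.20 for 2 arrays, which does not cover cultures. This error was nearly the same for every member probe, 0.144 to 0.156 on 1 array. It was wider than the median SD of 0.07 over repeat spots, so it is a nearly fixed yardstick and not a measured spread.

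Several probes show what was read. For Lpl, Retn and Cidec the design holds 2 probes each, at separate places of the gene, and the Adipoq probe is shown because that gene is made almost solely by adipocytes. The sequences are those of the design, 5′ to 3′, with mm9 positions from the files. The capitals in the Retn end mark AATAAA, the letters of the canonical polyadenylation signal, in the last 30 bases of its brighter probe.
Adipoq (chr16:23157576-23157635, plus strand): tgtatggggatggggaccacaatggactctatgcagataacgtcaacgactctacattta
Lpl, dimmer probe (chr8:71425050-71425109, plus strand): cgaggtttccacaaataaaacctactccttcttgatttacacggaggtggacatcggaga
Retn, dimmer probe (chr8:3657312-3657371, plus strand): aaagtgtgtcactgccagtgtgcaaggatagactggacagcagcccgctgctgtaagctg
Retn, end of the brighter probe (chr8:3659757-3659816, plus strand): acatacttaaaAATAAAacaaaacaggctg
Cidec, dimmer probe (chr6:113378116-113378175, minus strand): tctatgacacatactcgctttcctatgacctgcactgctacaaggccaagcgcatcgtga

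The brighter probes of Lpl and Cidec lie at chr8:71430267-71430326 and chr6:113374630-113374689. The remaining probes lie at chr6:115440213-115440272 for Pparg, chr10:79355302-79355361 for Cfd and chr5:17288600-17288659 for Cd36. The Fabp4 probe lies at chr3:10204452-10204511, the Plin1 probe at chr7:86866112-86866171 and the Car3 probe at chr3:14871781-14871840. Fabp4, Plin1, Cd36 and Cidec are on the minus strand and the other members on the plus strand. All are mm9 positions within transcripts of the named gene, and exon and UTR borders were not analysed here.

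The stretches upstream of Pparg, Plin1 and Adipoq are shown because the first encodes the receptor and the others are classic targets of the adipocyte programme. The RefSeq promoter table (GRCm38.p6) held 10 windows for 7 of the 10 members. Each window was searched over its 250 bases before the start, on both strands. The C/EBP-type letters TTGCNNAA were present in 9.56% of all 32851 windows and in 3 member windows, of Pparg, Plin1 and Cidec. The letters CCAAT were present in 33.8% of all windows and in 4 member windows, of Adipoq, Cd36 and Pparg. TATAAA was found in 12.4% of all windows and in 1 of Pparg. The direct repeat AGGTCA, 1 free base, AGGTCA, of the kind PPARG binds with its partner RXR, was in 0.0335% of all windows and in 0 member windows. With AGGNCA in place of each AGGTCA, which includes the former, it was in 0.338% of all windows and in 0 member windows. A match is a description of letters and not a binding site. Capitals mark TTGCNNAA in Pparg and Plin1, on either strand, and CCAAT in Adipoq.
Pparg, the window with the C/EBP-type letters (chr6:115421816-115422065, plus strand): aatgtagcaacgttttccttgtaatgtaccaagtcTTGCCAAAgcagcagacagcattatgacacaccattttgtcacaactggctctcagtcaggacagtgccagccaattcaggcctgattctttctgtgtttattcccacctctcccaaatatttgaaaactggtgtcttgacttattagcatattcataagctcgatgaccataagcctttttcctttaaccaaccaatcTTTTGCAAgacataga
Plin1 (chr7:79732777-79733026, minus strand): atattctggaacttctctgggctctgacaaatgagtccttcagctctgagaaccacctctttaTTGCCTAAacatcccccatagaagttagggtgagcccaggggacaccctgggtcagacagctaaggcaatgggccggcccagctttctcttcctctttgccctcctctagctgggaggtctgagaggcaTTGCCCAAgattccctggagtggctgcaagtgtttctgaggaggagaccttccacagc
Adipoq (chr16:23146286-23146535, plus strand): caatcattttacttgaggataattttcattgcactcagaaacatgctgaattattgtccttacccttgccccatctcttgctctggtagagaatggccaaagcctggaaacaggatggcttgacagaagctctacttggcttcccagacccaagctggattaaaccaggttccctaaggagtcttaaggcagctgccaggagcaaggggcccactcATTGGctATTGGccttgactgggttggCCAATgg

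In that Pparg window the C/EBP-type letters begin 215 and 16 bases before the start. In the Plin1 window they begin 187 and 58 bases before it, and in the Adipoq window CCAAT lies 34, 27 and 7 bases before it.

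All 10 members had a higher level in both -/- cultures than in both +/+ cultures, with no overlap. How many of all genes did the same was not counted, so this does not show how unusual the members are. Without calcium 10 of 10 members were at least 2-fold higher in -/- cells, where 4.65% of the 21346 genes compared were higher and 4.32% lower. With calcium 10 of 10 were, where 6.55% of 21564 genes were higher and 3.05% lower. These shares are given as background only, since the genotype differences chose the members. The median member was 6.27-fold higher without calcium (log2 2.65) and 7.72-fold higher with calcium (2.95), while the median gene was lower in -/- cells by 0.18 and 0.16. Differences ran from 1.31 to 3.69 without calcium and from 1.56 to 4.81 with it, an SD over the members of 0.76 and 0.92. The members nearest to 2-fold were Fabp4 and Lpl.

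**Figure D1:**
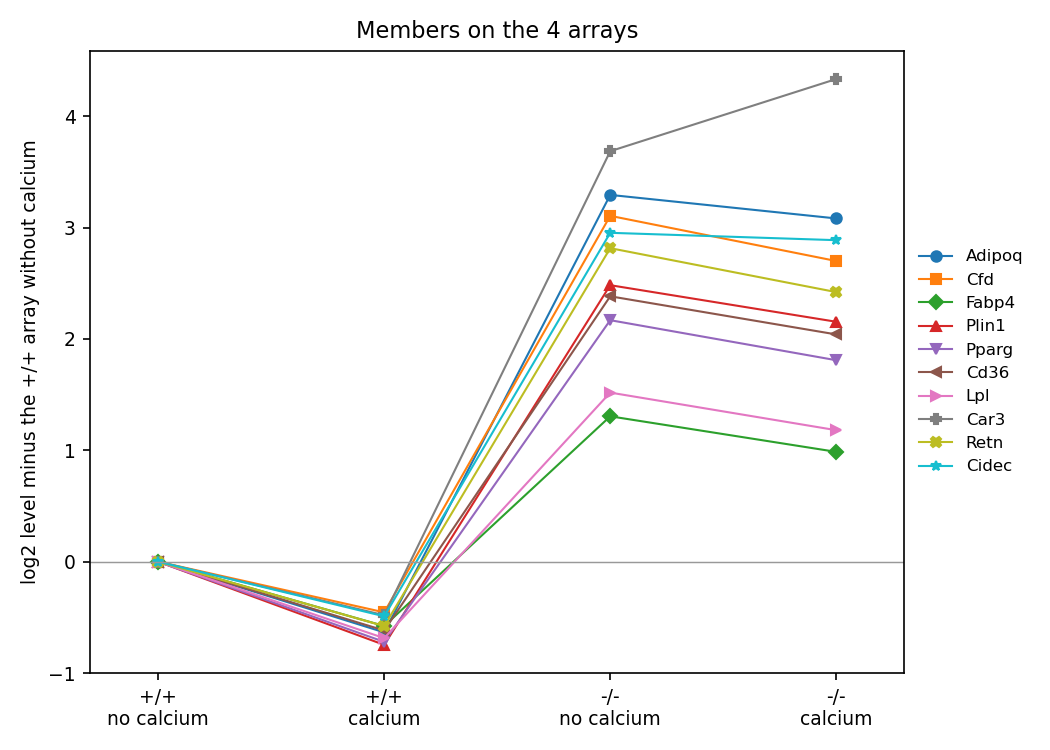
Log2 level of each of the 10 members on the 4 arrays (x axis), minus its level on the +/+ array without calcium (y axis), 1 probe per gene and 1 array per point, with lines joining the points of a gene. Every member lay below 0 in +/+ cells with calcium and above it in both -/- cultures, and Car3 alone lay higher with calcium than without in -/- cells.

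Pparg, the master regulator, had a level of 1.48 in +/+ cells without calcium, 0.901 in +/+ cells with calcium, 6.67 in -/- cells without calcium and 5.20 in -/- cells with calcium. It was thus high in both -/- cultures and lowest in +/+ cells with calcium. The design prints this probe 10 times on each array, which shows how far repeat spots spread. Background-subtracted signals of the 10 spots, before scaling, ran from 3548 to 4154 (median 3958) in +/+ cells without calcium. With calcium they ran from 2336 to 2617 (median 2475). In -/- cells they ran from 18100 to 20378 (median 19399) and from 16060 to 18376 (median 17212). The spots of any 2 arrays of different genotype did not overlap, and the SD of log2 signal over spots was 0.05 to 0.07. Pparg was 4.49-fold higher in -/- cells without calcium (2.17) and 5.77-fold higher with it (2.53). The probe is listed for both transcript variants of the gene, so the general and the adipocyte form cannot be told apart.

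Among the secreted members, Adipoq encodes adiponectin, the hormone most closely tied to mature adipocytes. Its level was 0.865 without and 0.557 with calcium in +/+ cells, against 8.48 and 7.32 in -/- cells. It was high in both -/- cultures, by 9.80-fold without calcium and 13.1-fold with calcium (3.29 and 3.72). Cfd encodes adipsin, the complement factor D released by fat cells. Its level was 1.98 and 1.44 in +/+ cells and 17.0 and 12.8 in -/- cells, in the same order. This is an 8.60-fold and an 8.90-fold difference (3.11 and 3.15), nearly equal with and without calcium. Retn encodes resistin, a peptide made by adipocytes in the mouse. Its level was 0.360 and 0.241 in +/+ cells and 2.53 and 1.93 in -/- cells. The 2 Retn probes printed above gave almost the same result, 7.04-fold and 7.30-fold without calcium and 7.99-fold and 7.96-fold with it.

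Lpl, Cd36 and Fabp4 bring fatty acids to the store. Lpl encodes lipoprotein lipase, which releases fatty acids from circulating lipoproteins. Its level was 17.9 without and 11.1 with calcium in +/+ cells, against 51.4 and 40.6 in -/- cells. Its difference was among the smallest of the members, 2.86-fold without calcium (1.52) and 3.65-fold with it (1.87). The dimmer probe gave a wider one, 3.75-fold and 4.76-fold, from levels of 4.22 and 2.74 in +/+ cells and 15.8 and 13.1 in -/- cells. Both probes thus had the same direction and differed in size, with log2 values of 1.52 and 1.91 without calcium.

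Cd36 encodes a fatty acid transporter at the cell surface, also found on macrophages and capillaries. Its level was 1.57 and 1.02 in +/+ cells and 8.18 and 6.46 in -/- cells, again low in +/+ and high in -/- cultures. That is 5.22-fold without calcium (2.38) and 6.31-fold with calcium (2.66). Fabp4 encodes the adipocyte fatty acid binding protein, likewise shared with macrophages and endothelium. Its level was 32.8 and 22.0 in +/+ cells and 81.1 and 65.0 in -/- cells, the smallest genotype difference of the 10, 2.47-fold (1.31) and 2.96-fold (1.56).

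Plin1 and Cidec act on the lipid droplet. Plin1 encodes perilipin 1, which coats the droplet and holds lipases off it. In +/+ cells its level was 0.652 without and 0.389 with calcium, against 3.65 and 2.90 in -/- cells. It was 5.59-fold higher in -/- cells without calcium (2.48) and 7.47-fold higher with calcium (2.90). Cidec fuses small droplets into large ones. Its level was 1.27 and 0.907 in +/+ cells and 9.86 and 9.42 in -/- cells, nearly flat across calcium in -/- cells. The difference was 7.74-fold without calcium (2.95) and 10.4-fold with calcium (3.38). The dimmer probe, at another place of the gene, gave 6.98-fold and 8.80-fold.

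Car3, carbonic anhydrase 3, is abundant in fat and in slow skeletal muscle. In +/+ cells its level was 0.197 without and 0.141 with calcium, against 2.53 and 3.96 in -/- cells. It had the widest genotype differences of the members, 12.9-fold without calcium (3.69) and 28.1-fold with it (4.81). It was also the member highest in the -/- culture with calcium rather than without.

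**Figure D2:**
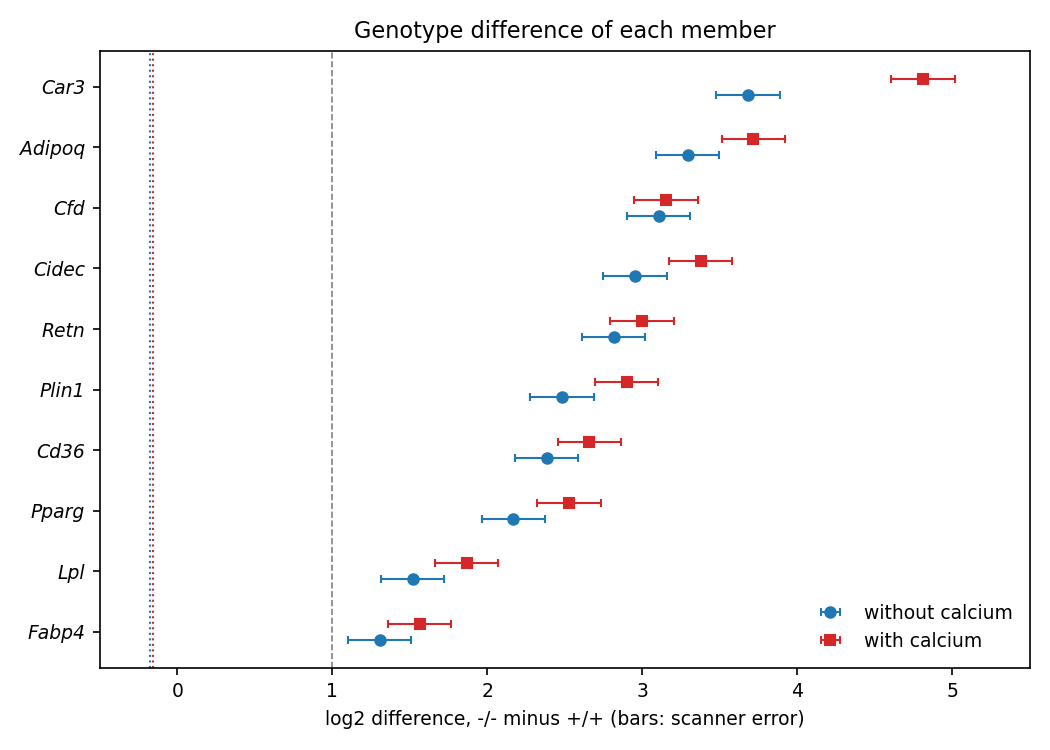
Genotype difference of each member (y axis) as log2 of -/- minus +/+ (x axis), without calcium (circles) and with calcium (squares). Bars are the scanner error, the dashed line is 2-fold, and dotted lines are the medians of all genes compared, -0.18 and -0.16. All 20 points lie to the right of 2-fold, from Fabp4 at 1.31 to Car3 at 4.81.

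The calcium comparisons were smaller by far. In +/+ cells 0 of 10 members were at least 2-fold higher or lower with calcium, where 2.47% of 21129 genes were higher and 1.01% lower. All 10 were lower with calcium, by 1.37-fold for Cfd (-0.45) to 1.68-fold for Plin1 (-0.75), with a median of -0.60 against -0.07 for all genes. The share of all genes that were lower by any amount was not counted. The SD over the members was 0.10, so the members were shifted by similar amounts. This SD was also below the nearly fixed scanner error of 1 difference. Each of these 10 differences was larger than its scanner error.

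In -/- cells 0 of 10 members passed 2-fold either way, where 2.99% of 21428 genes were higher and 0.602% lower. Of the 10, 9 were lower with calcium, by 1.05-fold for Cidec (-0.07) to 1.32-fold for Cfd (-0.41). Here too the share of all genes lower by any amount was not counted. Only the Cidec difference was smaller than its scanner error. Car3 was 1.57-fold higher with calcium (0.65). The median member was at -0.33 against -0.03 for all genes, and without Car3 the SD over the other 9 was 0.11.

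These directions rest on scaling each array to its 75th percentile. When arrays were scaled to the 12 basal keratinocyte markers, the median gene was itself shifted to 0.42 in +/+ and 0.58 in -/- cells. Then 7 members were lower and 3 higher with calcium in +/+ cells, and 10 of 10 were higher in -/- cells. Under quantile scaling Cidec joined Car3 on the higher side in -/- cells. Relative to the median gene the members were lower by 0.52 in +/+ cells and by 0.31 in -/- cells, and with basal marker scaling the same distances were -0.52 and -0.30.

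**Figure D3:**
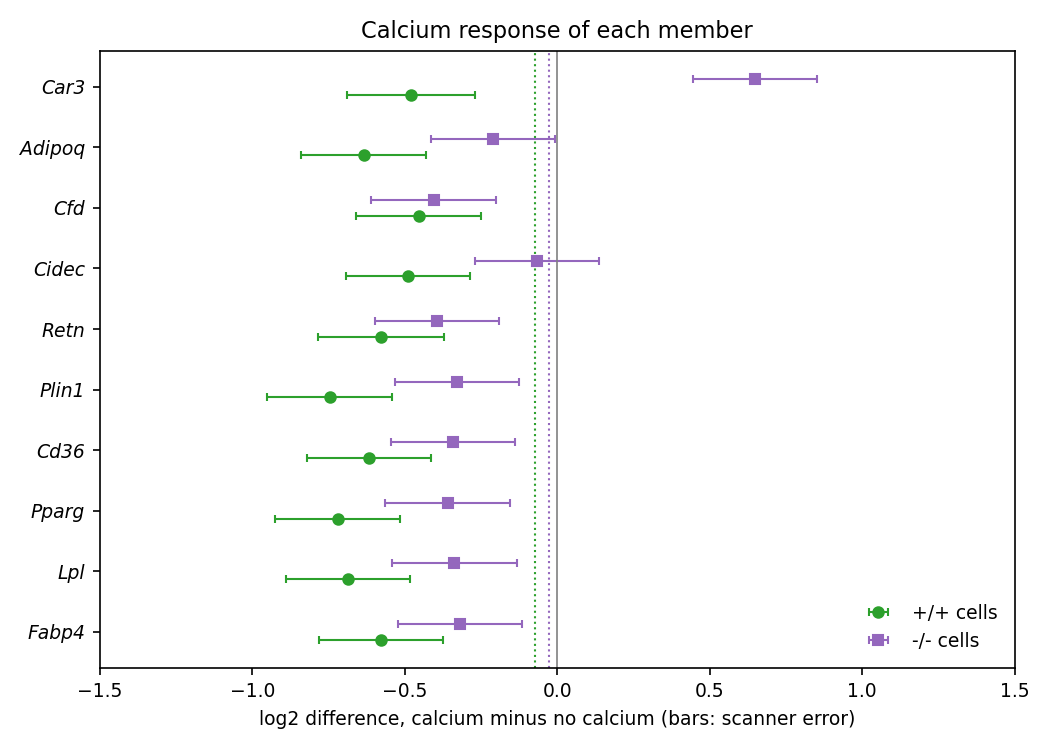
Calcium response of each member (y axis) as log2 of calcium minus no calcium (x axis), in +/+ cells (circles) and -/- cells (squares), in the order of the genotype difference. Bars are the scanner error and dotted lines the medians of all genes, -0.07 and -0.03. The +/+ points lie between -0.75 and -0.45, and the -/- points between -0.41 and -0.07 except Car3 at 0.65.

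The response of -/- cells minus that of +/+ cells was above 0 for 10 of 10 members, with a median of 0.35 against 0.02 for all genes. The share of all genes above 0 was not counted. Car3 alone reached 2-fold, at 2.19-fold (1.13), where 1.91% of the 19227 genes measured on all 4 arrays did so and 0.629% were 2-fold lower. For the other 9 members it lay between 0.05 for Cfd and 0.42 for Adipoq, Plin1 and Cidec. For 4 of the 10 it was smaller than the scanner error. The same 4 arrays enter both responses and both genotype differences, so this is the same statement as the wider genotype difference with calcium.

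Of the genes ranked by the closeness of their 4-array profile to the median member profile, each centred on its own mean, the nearest 10 of 19217 outside the members were Tph1, Pamr1, Cmbl, Rgs1, Slc25a34, Tpsg1, Ifi27l2a, Klb, Ear2 and Plin5. Their distances over the 4 arrays ran from 0.07 for Tph1 to 0.17 for Plin5. Among the members themselves Plin1 lay closest to the median profile at 0.12 and Retn next at 0.14, while Fabp4 at 1.36 and Car3 at 1.62 lay farthest. Tph1, which makes serotonin in mast cells and gut cells, was 6.47-fold higher in -/- cells without calcium. Tpsg1, a tryptase of mast cells, was 5.52-fold higher, and Klb, the FGF21 co-receptor of fat and liver, 5.41-fold.

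The members were set beside 93 other genes of adipocytes, in 9 lists by role. Lep, which encodes leptin, Serpina12 and Ucp1 were not well above background on any array. Of the 90 others compared without calcium, 34 were at least 2-fold higher in -/- cells and 1 lower, with a median of 0.59. Over all genes compared 4.65% were higher and 4.32% lower. With calcium 31 of 88 were higher and 4 lower, among them Klf5, Rxra and Wnt10b, with a median of 0.60. Over all genes 6.55% were then higher and 3.05% lower. These shares are also the background of each list below, and the lists were chosen with earlier results of these data known. The other adipocyte genes thus lay above the median gene on balance and below the members, but a large part stayed within 2-fold.

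**Figure D4:**
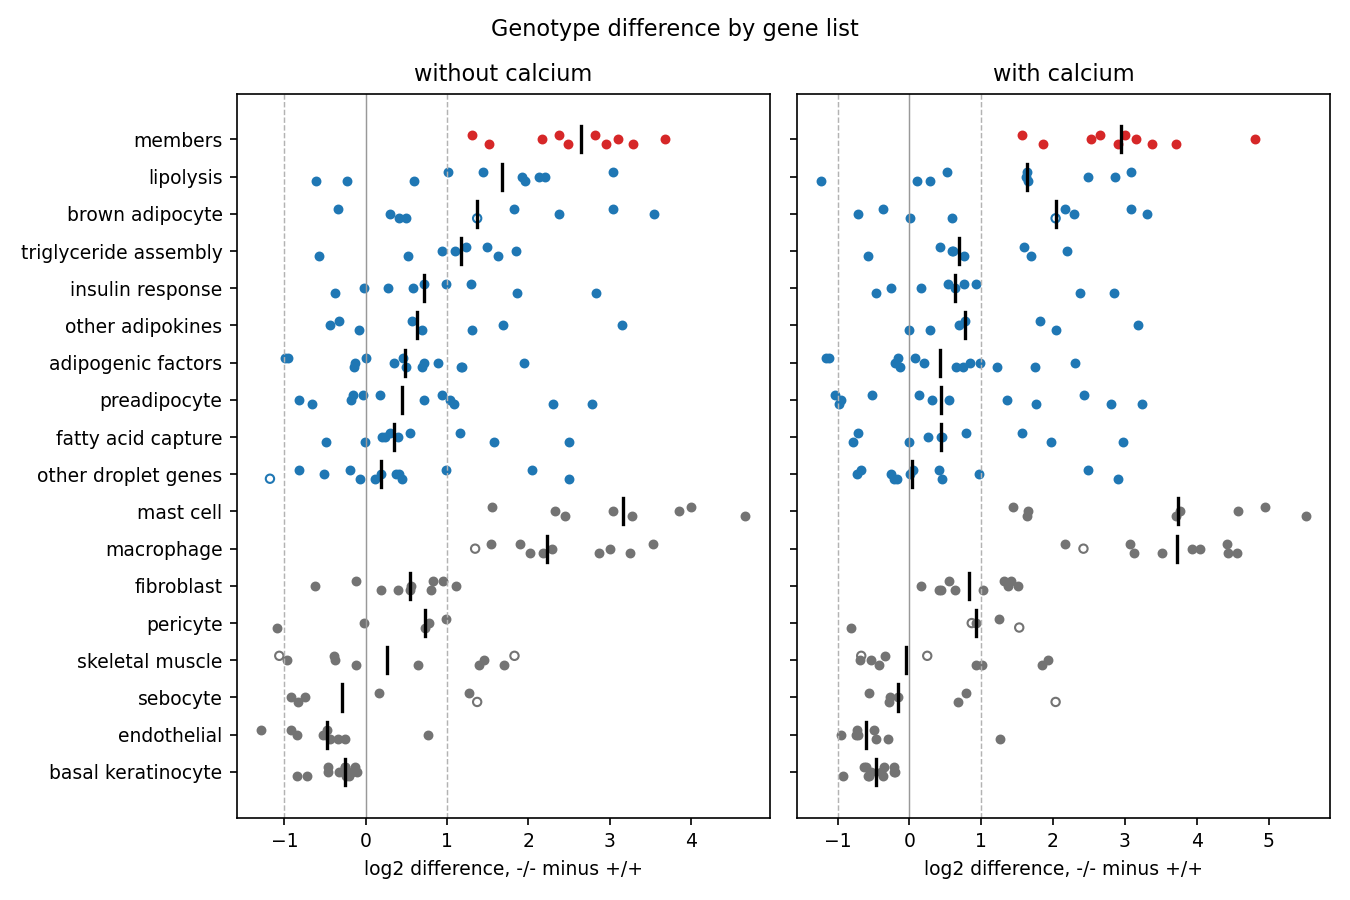
Genotype difference (log2 of -/- minus +/+, x axis) of every gene compared in the members (top), 9 adipocyte lists (next) and 8 cell type marker lists (bottom), without calcium (left) and with calcium (right). Black ticks are list medians, dashed lines 2-fold, and open circles lower bounds where 1 array was dim. The members centre at 2.65 and 2.95, mast cell markers at 3.16 and 3.74 and macrophage markers at 2.23 and 3.73, while endothelial and basal keratinocyte markers centre below 0.

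Lipolysis genes, which release fatty acids from the droplet, stood highest of the 9 lists by median without calcium, at 1.68. With calcium brown adipocyte genes stood higher, at 2.04 against 1.63. The brown median in both comparisons is the lower bound of Elovl3, which was dim on both +/+ arrays. With calcium the order was reversed under normexp, at 0.89 for brown adipocyte genes against 1.52. It was also reversed with both arrays above background and with no filter, at 1.38 against 1.63. With the mean of a gene's probes lipolysis genes fell to 1.15 without calcium, below brown adipocyte genes at 1.37 and triglyceride assembly at 1.17. Of the 10 lipolysis genes, 7 were at least 2-fold higher without calcium and 6 with it. Adrb3, the adrenergic receptor of fat, was 8.22-fold and 8.50-fold higher without and with calcium by its brighter probe, and its other probe gave smaller log2 values, 1.20 and 1.17. The triglyceride lipase gene Pnpla2 was 3.87-fold and 3.14-fold higher. G0s2, whose product inhibits that lipase, was 4.60-fold and 7.30-fold higher. Pde3b was 4.36-fold and 5.59-fold higher by its brighter probe, but its other probe gave log2 values of -0.82 and 1.05. In triglyceride assembly 5 of 8 were higher without calcium and 3 with it. They included Gpd1, which makes the glycerol backbone, at 3.59-fold and 4.58-fold, and the phosphatase gene Lpin1 at 3.08-fold and 3.25-fold. Agpat2, an acyltransferase gene, was 2.82-fold and 3.02-fold higher, and Dgat2, which encodes the last step, 2.35-fold and 1.34-fold.

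Droplet genes beyond the members were divided. Of 13 compared without calcium 2 were at least 2-fold higher, and of 12 with calcium again 2. They were the perilipins of fat and of oxidative tissue, Plin4 at 4.14-fold and 5.60-fold and Plin5 at 5.64-fold and 7.52-fold. Fitm1 was at least 2.26-fold lower in -/- cells without calcium, from a signal well above background on 1 array only. Bscl2, which encodes seipin, was 1.98-fold higher. Among 10 genes of fatty acid capture 3 were higher in each comparison, Apoe at 5.66-fold and 7.84-fold, Acsl1 at 2.97-fold and 3.92-fold, and Angptl4, an inhibitor of lipoprotein lipase, at 2.24-fold and 2.97-fold. The median of that list was 0.34 and 0.45.

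Among other adipokines 3 of 8 and 3 of 7 were higher, led by Agt, the angiotensinogen gene, at 8.90-fold and 9.07-fold. Nrg4 was 3.22-fold and 4.13-fold higher by its brightest probe, while the lowest of its 3 probes gave log2 values of 0.14 and -0.07. Itih5 was 2.47-fold and 3.53-fold higher. Among 14 adipogenic transcription factors 3 were higher in each comparison. The partner of Pparg in fat, Cebpa, was 2.26-fold and 2.32-fold higher, Nr1h3 3.86-fold and 4.93-fold, and Klf15 2.25-fold and 3.36-fold. Klf5 was 1.99-fold and 2.18-fold lower. Rxra, which encodes the dimer partner of PPARG, was 1.95-fold and 2.23-fold lower by its brighter probe, while its other probe showed almost no difference in either comparison.

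In the insulin response list 3 of 9 were higher without calcium and 2 with it. Slc2a4, the insulin-regulated glucose transporter of fat and muscle, was 7.13-fold and 7.21-fold higher, and Tbc1d4, which controls its traffic, 3.64-fold and 5.17-fold. Of 9 brown adipocyte genes 5 were higher in each comparison. Cox8b was 11.7-fold and 9.91-fold higher, the coactivator gene Ppargc1a 5.19-fold and 4.88-fold, and Cox7a1 3.55-fold and 4.48-fold. Ucp1, the defining gene of brown fat, was the one not well above background on any array. Of 12 preadipocyte genes 4 were higher without calcium and 5 with it. Dlk1, the surface protein of preadipocytes that is lost on maturation, was 4.95-fold and 9.46-fold higher, Gata2 6.90-fold and 7.02-fold, and Zfp521 2.12-fold and 3.39-fold (its other probe 0.58 and 1.65 in log2). Wnt10b, which blocks adipogenesis, was 2.06-fold lower with calcium.

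Markers of some other cells of the skin were also higher in -/- cells. Of 10 macrophage markers 10 were at least 2-fold higher in -/- cells in both comparisons, with medians of 2.23 and 3.73. Csf1r was so by its brightest probe, while the lowest of its 3 probes gave log2 values of 0.08 and 0.04. The Cd163 values are lower bounds, since its probe was dim on both +/+ arrays. The summed level of the macrophage markers was 5.84 without and 4.09 with calcium in +/+ cells, against 27.5 and 41.8 in -/- cells. C1qc was 11.6-fold and 21.5-fold higher and Mrc1 7.31-fold and 23.5-fold. Unlike the members, the macrophage markers had a median calcium response of 0.78 in -/- cells, with 9 of 10 above 0. The difference between these lists was not tested. Of 8 mast cell markers measured, 8 were at least 2-fold higher in both comparisons, with medians of 3.16 and 3.74, and Ms4a2 was not well above background on any array. Their summed level was 1.52 and 1.69 in +/+ cells and 11.4 and 11.4 in -/- cells. Mcpt4, a mast cell protease gene, was 25.5-fold and 45.7-fold higher. The part of macrophages or mast cells in the members' levels was not tested.

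Endothelial cells can also hold Cd36 and Fabp4 transcripts. Of their markers, without calcium 0 of 9 were at least 2-fold higher and Emcn was 2.43-fold lower, and with calcium 1 of 8 was at least 2-fold higher (Vwf, 2.39-fold). Their medians were -0.47 and -0.61, below 0 under every scaling tried, and their summed level was 3.05 and 3.33 in +/+ cells and 2.20 and 2.11 in -/- cells. Their part in the members' levels was not tested. Skeletal muscle markers, set here beside Car3, were mixed. Their list held no slow-fibre gene such as Myh7 or Tnnt1. Of 10 compared 4 were at least 2-fold higher and Myod1 at least 2.09-fold lower without calcium, and 3 were higher with calcium. Their summed level was 2.07 and 2.66 in +/+ cells and 2.52 and 3.39 in -/- cells, and Ckm, the muscle creatine kinase gene, was not well above background on any array. Acta1 was 3.26-fold and 2.02-fold higher and Tnnc2 2.62-fold and 3.58-fold. Their part in the Car3 level was not tested.

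Sebocytes are the other lipid-rich cells of the skin. Of their 10 markers Awat1, Far2 and Dgat2l6 were not well above background on any array. Of the others 2 of 6 were at least 2-fold higher without calcium and 1 of 7 with it, with medians of -0.29 and -0.16 that turned to 0.06 and 0.30 under basal marker scaling. Their summed level was 0.686 and 0.523 in +/+ cells and 0.918 and 0.722 in -/- cells. Scd3 was 2.41-fold and 1.73-fold higher by its brightest of 3 probes, which ran up to log2 2.09 and 2.26, and Elovl3, also a brown fat gene, at least 2.59-fold and 4.10-fold, while Mogat2 was 1.89-fold and 1.48-fold lower.

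Fibroblast markers, from the dermal cells among which adipocytes arise, were mostly higher, with smaller differences than the members. Below 0 were 2 of them without calcium, Mfap5 at -0.62 and Thy1 at -0.12, and 0 with calcium. Of 10, 1 was at least 2-fold higher without calcium (Col3a1, 2.16-fold) and 5 with it, with medians of 0.55 and 0.83 and summed levels of 129 and 117 in +/+ cells and 194 and 214 in -/- cells. Of 5 pericyte markers 0 were 2-fold higher without calcium, where Notch3 was 2.12-fold lower, and 2 with it, with medians of 0.74 and 0.92. The 12 basal keratinocyte markers were all lower in -/- cells, by medians of 0.26 and 0.46, with summed levels of 493 and 442 in +/+ cells and 401 and 312 in -/- cells. That direction follows the scaling, since scaling to these markers sets their mean to 0. Trp63, which maintains basal cells, was 1.79-fold and 1.90-fold lower by its brightest probe, and all 4 of its probes were below 0, the nearest at -0.18 and -0.38. Of the differentiated keratinocyte markers 0 of 6 were 2-fold higher without calcium, and 2 of 9 were higher and 3 lower with it. Hba-a1, a haemoglobin gene of red cells, was 7.54-fold and 10.6-fold higher, and the other 2 red cell markers measured were within 2-fold in each comparison. The share of adipocytes, of fibroblasts and of other dermal cells in each culture was not given in the labels, so a different share of cells, a different preparation and a different level per cell cannot be told apart.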

How the data were processed

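RNA from 4 pooled cultures (200 ng each) was hybridised to 1-colour arrays. The authors deposited an intensity per spot, made with Agilent Feature Extraction 11.5.1.1 per the submitters' processing notes, background-subtracted per the file headers. Their value table holds a ratio, read here as each deposited intensity over its array's 75th percentile. The ratio was proportional to the intensity within each array (largest relative difference 2.3e-07 once 1 factor per array was divided out). That comparison does not check the divisor. The member median for genotype without calcium was 2.6479 from that table and 2.6486 here. Here outlier spots (105 to 116 an array) were dropped, log2 intensity was taken minus the array's 75th percentile (2638, 2737, 2889 and 3299), and spots of a probe were averaged. Of 39426 probes 27508 were named through their accession in a RefSeq table and the rest kept the file's name, giving 30340 genes, each read from its brightest probe. Genes had to be well above background on 1 or both arrays of a pair. Where 1 was dim the difference is a bound ("at least"), taken against the gene's own value there or the array's lowest well-above-background signal, whichever was higher. The scanner error is the propagated signal error of the files. The median SD of log2 intensity over 10 repeat spots was 0.07 on each array. Each group is 1 array, so no test was run and genes were counted at 2-fold.

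Named were all members, up to 4 genes per list with the largest genotype difference without calcium, any gene of a list at least 2-fold the other way, and the 10 nearest profiles. A few of the genes under this rule are not printed, and the counts include them. The members and lists were chosen with earlier results of these data known. Other settings tried were normexp (offset 50), quantile scaling, scaling to basal keratinocyte markers or to the median measured probe, the authors' value table, the mean of a gene's probes, genes above background on both arrays, no filter, and a 3-fold threshold. The code was tested on simulated data. Software was Python 3.11.15 with numpy 2.4.6 and pandas 2.3.3, and R 4.3.3 with limma 3.58.1.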

Additional observations from a re-analysis of the deposited data

Results flagged for a closer look

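Car3 was lower with calcium in +/+ cells and higher with calcium in -/- cells, a difference of the responses of 1.13 (log2). With the main scaling the medians of 7 lists also had opposite signs in the 2 genotypes. The difference of the medians, -/- minus +/+, was 1.23 for macrophage markers, 1.18 for red cell markers and 0.52 for sebocyte markers. It was 0.35 for fibroblast markers, 0.32 for pericyte markers, 0.15 for genes of fatty acid capture and 0.094 for endothelial markers. With 1 array per group none of these differences was tested.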

How the results depend on the processing

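No member's genotype difference changed direction or side of the 2-fold limit under any alternative. The 160 such values ran from 1.30 to 5.28, and at 3-fold 8 and 9 of 10 members passed without and with calcium. Of 400 member values under alternatives 355 moved by less than the scanner error, 45 moved by more, and 0 of those at least 2-fold reversed. Scaling to basal keratinocyte markers gave member medians of 3.00 and 3.41 for genotype without and with calcium, -0.11 for calcium in +/+ cells and 0.27 in -/- cells, where 1 member (Car3) then passed 2-fold. The other adipocyte genes then had medians of 0.94 and 1.07, with 48 higher and 0 lower with calcium. The median gene then stood at 0.17 and 0.31 between genotypes without and with calcium. The count of other adipocyte genes lower without calcium, 1, was 0 with normexp, quantile and basal marker scaling, when both arrays had to be above background, and at 3-fold. A 3-fold threshold also gave 20 of them higher without calcium, 0 lower with calcium, and 0 members past it in the difference of calcium responses, and by construction it calls fewer genes. Of all genes 2-fold different without calcium 51.8% were higher in -/- cells, against 74.4% with quantile scaling, 77.7% with normexp and 85.2% with basal marker scaling, and against 30.9% with no filter on signal, where most were lower. With calcium it was 68.2%, against 92.4% with basal marker scaling and 61.4% with no filter. The share higher with calcium was 70.9% in +/+ cells (84.1% normexp, 95.7% basal markers, 44.7% no filter) and 83.2% in -/- cells (73.1% quantile, 99.1% basal markers), and for the difference of responses it was 75.2% (63.3% normexp, 50.4% quantile). No paired analysis was possible because each group is 1 array. Signal over background limited none of the members.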
